A study of Homo sapiens with 8 samples.

Results

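The 10 genes described here are the transcription factors that drive epithelial-mesenchymal transition (EMT) and the regulators that oppose them. They were chosen by name from a table of 60483 genes, as 5 mesenchymal factors (SNAI1, SNAI2, ZEB1, ZEB2 and TWIST1) and 5 epithelial regulators (GRHL2, OVOL1, OVOL2, ESRP1 and ESRP2). Earlier results of these data were known when they were chosen. All 10 were found in the table, and 9 passed the filter on low counts. The RNA came from SW1990, an established line of pancreatic ductal adenocarcinoma, and every sample title places it in the side population, the cells that export a DNA-binding dye. One group was a control, with no guide or vector named in the titles, and the other carried a knockdown of PAF1 by CRISPR, PAF1 being a subunit of the PAF1 elongation complex of RNA polymerase II. Each group had 2 libraries of 2 lanes each, with no statement that they came from separate cultures, and any p-value here reflects only how far these libraries spread, which may be technical. In each group the column name of 1 library began with SP and that of the other did not, so the libraries are called SP-prefixed and unprefixed. The SP-prefixed names also hold P3, so a term for the prefix cannot be told apart from whatever P3 stands for. The name of the unprefixed control lacks the word CRISPR, which the other 3 carry, so the labels do not show that both controls are of one kind. The labels leave unclear whether cells of the unprefixed libraries were sorted as side population. Because PAF1 mRNA did not separate the groups, the second group is called knockdown-labelled.

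EMT is the shift by which attached, polarised epithelial cells take on a motile form. Factors of the Snail, ZEB and Twist families bind E-box sequences and repress epithelial genes such as CDH1, which encodes E-cadherin. GRHL2 and the OVOL proteins are transcription factors that sustain epithelial genes and restrain ZEB1, while ESRP1 and ESRP2 are RNA-binding proteins that set epithelial splicing. ZEB1 and ZEB2 are also held down by microRNAs of the miR-200 family and by miR-205, and the ZEB proteins in turn repress the miR-200 genes. In pancreatic cancer this circuit is known for its part in invasion and in stem-like traits.

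The miR-200 family is shown because its seed matches were more numerous in ZEB1 and ZEB2 than in the other members, and miR-205 as another microRNA known to act on them. The mature sequences are from RefSeq on GRCh38.p14, 5′ to 3′, with the seed (bases 2 to 8) in capitals. The first 3 share the seed AAUACUG, the next 2 share AACACUG, and miR-205-5p has CCUUCAU.
hsa-miR-200b-3p: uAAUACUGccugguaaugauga
hsa-miR-200c-3p: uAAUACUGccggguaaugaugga
hsa-miR-429: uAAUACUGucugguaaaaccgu
hsa-miR-200a-3p: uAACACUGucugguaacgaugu
hsa-miR-141-3p: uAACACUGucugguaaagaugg
hsa-miR-205-5p: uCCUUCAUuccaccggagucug

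The longest 3′ untranslated region (UTR) that GENCODE 29 annotates for each member was searched for the letters that pair with these seeds, on the transcript strand. The letters are CAGTATT for the first seed, the motif CAGTGTT for the second, and for that of miR-205-5p they read ATGAAGG. ZEB1 held 6, 3 and 1 matches in 2549 bases, and ZEB2 held 5, 4 and 0 matches in 5370 bases. Among 2927 genes whose 3′ UTR length was within 25% of that of ZEB1, 25.7% held CAGTATT at all and 0.0342% held it at least as often as ZEB1. For ZEB2 the shares were 45.2% and 0.14% of 1430 genes. For CAGTGTT the same shares were 28.7% and 0.547% for ZEB1, and 51.1% and 1.33% for ZEB2. ZEB1 and ZEB2 are themselves counted in these shares. For the single miR-205 match in ZEB1, 18.3% of the UTRs near its length, its own included, held at least as many. SNAI2 had 1 CAGTATT, ESRP1 1 CAGTATT and 1 CAGTGTT, and GRHL2 1 CAGTGTT. SNAI1, TWIST1, OVOL1, OVOL2 and ESRP2 had none of the 3 motifs in this window. A match is a description of the letters and not a measured site. The first match for each of the miR-200 seeds is shown for both genes, with the paired letters in capitals.
ZEB1 site, first seed: attgttttatcttatCAGTATTa
ZEB1 site, second seed: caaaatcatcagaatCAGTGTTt
ZEB2 site, first seed: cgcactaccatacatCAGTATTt
ZEB2 site, second seed: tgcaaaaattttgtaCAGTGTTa

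**Figure D1:**
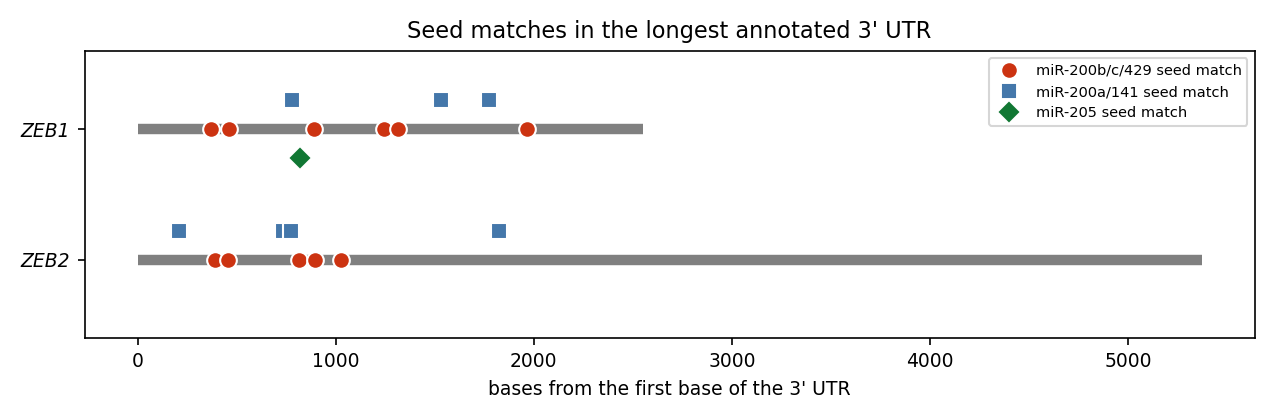
Positions of seed matches along the longest annotated 3′ UTR of ZEB1 (2549 bases) and ZEB2 (5370 bases), in bases from its first base. The last match begins at base 1964 in ZEB1 and at base 1825 in ZEB2, and squares and diamonds are drawn off the line only to keep them apart.

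The targeted gene did not separate the groups at the mRNA level. PAF1 had 55.2 CPM (depth-scaled read counts, here on TMM-normalised library sizes) in the unprefixed and 43.9 CPM in the SP-prefixed control. It had 41.7 and 44.4 CPM in the unprefixed and SP-prefixed knockdown-labelled libraries, a log2 fold change of -0.20 ± 0.16 (SE with n = 2 libraries a side; by edgeR a Benjamini-Hochberg adjusted p = 0.663). PAF1 protein was not measured here, so whether the knockdown reached the protein cannot be told. Every direction below therefore rests on the labels. Total counts ran from 17234973 to 22348416 per library. Lanes of 1 library, compared by chi-square over its degrees of freedom, gave 1.01 to 1.03 and were summed. The controls differed from each other by 41.25 on that measure and the knockdown-labelled libraries by 10.13. The SP-prefixed control stood apart, at 37.83 to 41.25 from each other library, and the unprefixed control was closer to the unprefixed knockdown-labelled library (11.96) than to the other control. All 7 ductal carcinoma markers (KRT7, KRT8, KRT18, KRT19, EPCAM, CDH1 and MUC1) stood between 71.6 and 2510 CPM in every library. MUC1 was the 1 of them that fell with a term for the prefix, from 229 and 143 CPM to 115 and 71.6 CPM (edgeR adjusted p = 0.0115). In that fit 1.34% of all genes fell.

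All 4 mesenchymal factors that could be measured were higher in both knockdown-labelled libraries than in both controls, and no member passed the test over all genes. SNAI2, or Slug, was the most abundant of them. These are bulk libraries, in which fewer cells of a type and less RNA per cell cannot be told apart. ZEB1 was far less abundant, SNAI1 and ZEB2 were close to the counting limit, and TWIST1 was not detected. Of the epithelial regulators, ESRP1, OVOL1 and OVOL2 were lower in both knockdown-labelled libraries, whereas GRHL2 and ESRP2 overlapped between groups. The edgeR test passed 0 of 16417 genes, a share of 0%, with 1846 genes (11.2%) at an unadjusted p under 0.05. DESeq2 passed 258 genes (1.57%, or 0.445% higher and 1.13% lower) and limma-voom 0, and neither passed a member. With the prefix of the column name as a term, which removes the difference between the library pairs, edgeR passed 304 genes (1.85%), again with 0 members. Without the filter on low counts edgeR passed 2.97% of 30366 genes (0.866% higher, 2.1% lower), among them SNAI1, SNAI2 and ZEB1. Without the SP-prefixed control it passed 1.72% (0.608% higher, 1.11% lower) and 0 members. Groups did not overlap for 7 of the 9 measured members, and for 44.7% of all genes tested.

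**Figure D2:**
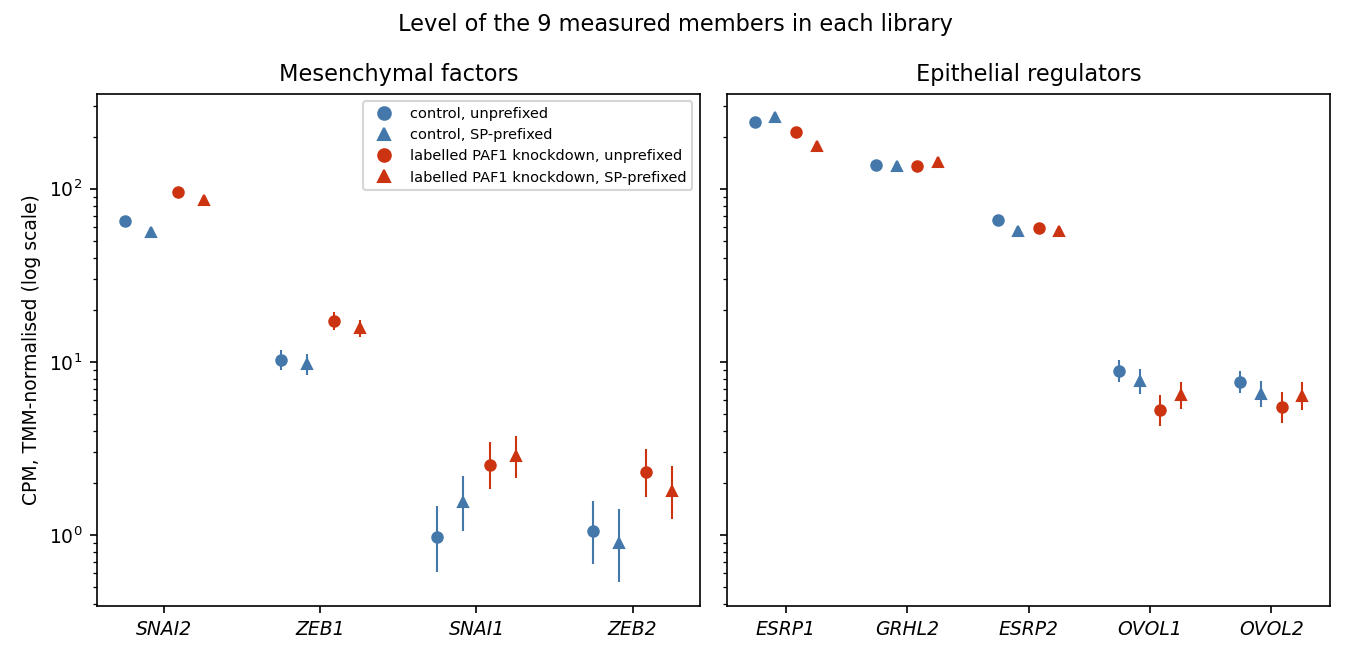
Level of each measured member in CPM on a log axis, by library, with exact Poisson 95% intervals that cover counting error only. The red points of the 4 mesenchymal factors lie above the blue points, those of ESRP1, OVOL1 and OVOL2 lie below, and those of GRHL2 and ESRP2 overlap them.

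SNAI2 (ENSG00000019549, chromosome 8, 48917690 to 48921740, minus strand, GRCh38) encodes a zinc finger repressor of the Snail family. It had 65.4 CPM in the unprefixed and 55.9 CPM in the SP-prefixed control, against 96.3 and 85.8 CPM in the knockdown-labelled libraries. The lower of these was 1.31 times the higher control, and none of the counting intervals overlapped between groups. The log2 fold change was 0.59 ± 0.14 (SE with n = 2 libraries a side; by edgeR a Benjamini-Hochberg adjusted p = 0.247), and 0.0751 was the adjusted p with the prefix term. The pairs gave nearly the same value, 0.56 for the unprefixed and 0.62 for the SP-prefixed libraries. Without the unprefixed control SNAI2 passed the test, its log2 fold change being 0.72 (edgeR adjusted p = 0.0128), in a fit that passed 8.46% of all genes, 3.21% higher and 5.25% lower and in which the lone control is assumed to vary like the other group.

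SNAI1 (ENSG00000124216, chromosome 20, 49982999 to 49988886, plus strand), or Snail, is the family member that is induced early in many EMT models. It had 22 and 31 counts in the unprefixed and SP-prefixed controls and 44 and 54 counts in the knockdown-labelled libraries. These were 0.970 and 1.55 CPM against 2.55 and 2.85 CPM. The groups did not overlap, but the interval of the SP-prefixed control (1.05 to 2.19 CPM) overlapped those of the knockdown-labelled libraries (1.85 to 3.42 and 2.14 to 3.71 CPM). The SP-prefixed control was itself 0.67 log2 units above the unprefixed one. Single lanes held 10 to 19 counts in the controls and 17 to 29 in the others, so lanes of the groups overlapped. The log2 fold change was 1.11 ± 0.33 (SE with n = 2 libraries a side; edgeR adjusted p = 0.323), with pair values of 1.39 (unprefixed) and 0.88 (SP-prefixed). The processed pseudogene SNAI1P1 on chromosome 2 had 0 counts in every library.

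ZEB1 (ENSG00000148516, chromosome 10, 31318495 to 31529814, plus strand) encodes a zinc finger homeodomain repressor of E-cadherin and of the miR-200 genes. It had 10.3 and 9.67 CPM in control libraries and 17.3 and 15.6 CPM in the knockdown-labelled libraries, unprefixed first. The controls differed by 0.09 log2 units, little beside the distance between the groups, and no counting interval reached across. The log2 fold change was 0.72 ± 0.17 (SE with n = 2 libraries a side; edgeR adjusted p = 0.229), with 0.75 and 0.69 in the pairs and an adjusted p of 0.0795 with the prefix term. It ranked 260 of 16417 genes by p, the highest rank of any member. With the SP-prefixed library as the lone control, which stood apart from the other libraries, the log2 fold change of ZEB1 was 0.78. With the unprefixed library as the lone control it was 0.68.

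ZEB2 (ENSG00000169554, chromosome 2, 144384081 to 144524583, minus strand), the paralog of ZEB1, had 24 and 18 counts in the controls and 40 and 34 counts in the knockdown-labelled libraries. That was 1.06 and 0.897 CPM against 2.32 and 1.79 CPM. The groups did not overlap, although the interval of the SP-prefixed knockdown-labelled library (1.24 to 2.50 CPM) overlapped those of both controls (0.678 to 1.57 and 0.532 to 1.42 CPM). The log2 fold change was 1.06 ± 0.33 (SE with n = 2 libraries a side; edgeR adjusted p = 0.330), and 1.13 and 1.00 in the pairs. TWIST1 (ENSG00000122691, chromosome 7), a basic helix-loop-helix factor, had 0 counts in all 4 libraries. A count of 0 allows up to 3 counts, which is 0.134 to 0.174 CPM of the raw library totals, and a difference could not be detected at this depth. Its paralog TWIST2 and the homeobox EMT factor PRRX1 had 0 to 1 counts per library.

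GRHL2 (ENSG00000083307, chromosome 8, 101492432 to 101669726, plus strand), a grainyhead-type activator of CDH1, claudin and ESRP genes, overlapped between groups. Its level was 136.5 and 135.7 CPM in control libraries and 135.9 and 142.7 CPM in the knockdown-labelled libraries. The log2 fold change was 0.03 ± 0.12 (SE with n = 2 libraries a side; edgeR adjusted p = 0.942). With 2347 to 3097 counts per library, counting error was small beside that of SNAI1 or ZEB2.

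OVOL1 (ENSG00000172818, chromosome 11, 65787022 to 65797219, plus strand), a zinc finger repressor of mesenchymal genes, had 8.86 and 7.73 CPM in control libraries against 5.27 and 6.43 CPM. Its log2 fold change was -0.50 ± 0.22 (SE with n = 2 libraries a side; edgeR adjusted p = 0.454). The difference was -0.75 in the unprefixed but -0.27 in the SP-prefixed pair, where the counting intervals overlapped. OVOL2 (ENSG00000125850, chromosome 20, 17956979 to 18059188, minus strand), its paralog and a repressor of ZEB1, had 7.67 and 6.53 CPM against 5.50 and 6.38 CPM. The log2 fold change was -0.26 ± 0.22 (SE with n = 2 libraries a side; edgeR adjusted p = 0.691), and -0.03 in the SP-prefixed pair. Its groups were thus barely apart, the higher knockdown-labelled library being 0.976 times the lower control.

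ESRP1 (ENSG00000104413, chromosome 8, 94641074 to 94707466, plus strand) had 243 and 260 CPM in control libraries and 213 and 177 CPM in the knockdown-labelled libraries. The groups were apart, with a log2 fold change of -0.37 ± 0.14 (SE with n = 2 libraries a side; edgeR adjusted p = 0.404). It was larger in the SP-prefixed pair (-0.56) than in the unprefixed pair (-0.19), a difference that was not tested. ESRP2 (ENSG00000103067, chromosome 16, 68229111 to 68238102, minus strand) had 65.7 and 57.02 CPM against 59.6 and 56.7 CPM. The groups overlapped, and the log2 fold change was -0.08 ± 0.14 (SE with n = 2 libraries a side; edgeR adjusted p = 0.868).

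**Figure D3:**
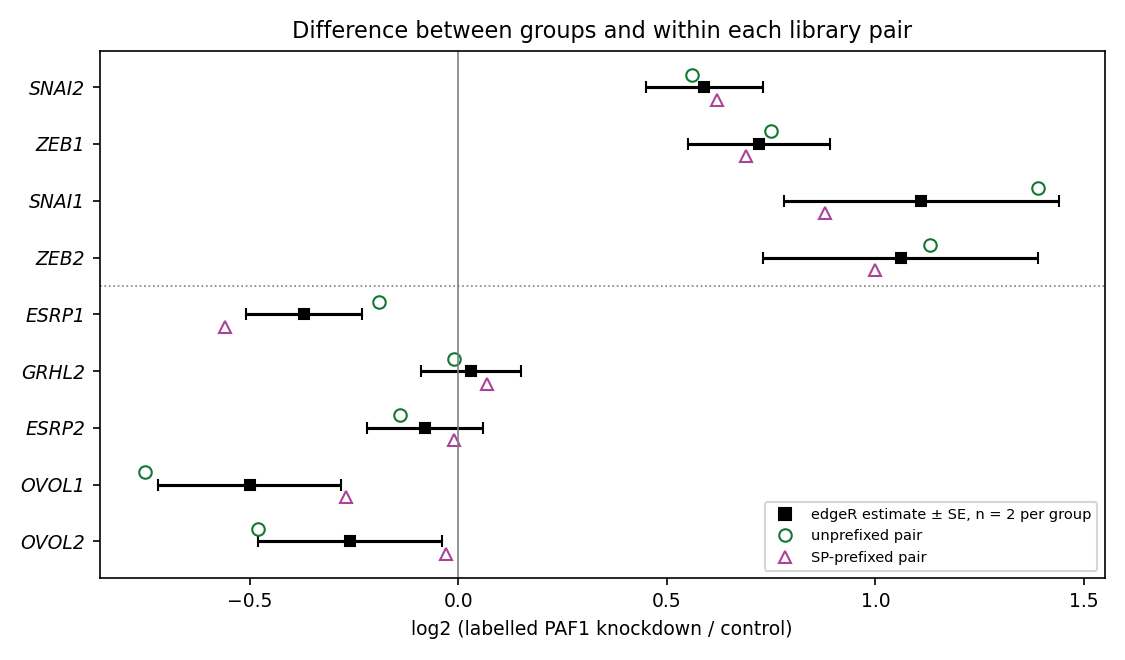
Log2 ratio of knockdown-labelled libraries to controls for each measured member, with the edgeR estimate ± SE (squares, n = 2 per group) and the ratio within the unprefixed (circles) and SP-prefixed (triangles) pair. The 4 mesenchymal factors lie between 0.56 and 1.39 in both pairs, and the epithelial regulators between -0.75 and 0.07.

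At an unadjusted p under 0.05, all 4 measured mesenchymal factors were higher in the fit without a covariate, against 4.03% of all genes. Among the 5 epithelial regulators 1, ESRP1, was lower at an unadjusted p under 0.05, against 7.21% of all genes. The members were chosen with earlier results of these data known, so these shares only describe them. The median log2 fold change was 0.89 over the mesenchymal factors and -0.26 over the epithelial regulators, beside -0.01 over all genes tested. In the pairs the medians were 0.90 and 0.76 for the mesenchymal factors, and -0.19 and -0.03 for the epithelial regulators, unprefixed pair first. Between SP-prefixed and unprefixed libraries, with the group as a term, the members differed by -0.31 (ZEB2) to 0.37 (SNAI1) log2 units (edgeR adjusted p of 0.713 to 0.991).

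The balance of the members was described by the mean log2 CPM of the 4 mesenchymal factors minus that of the 5 epithelial regulators. It was -3.01 in the unprefixed control, -2.88 in the SP-prefixed one, and -1.78 and -1.95 in the knockdown-labelled libraries. The group means were -2.94 ± 0.09 and -1.87 ± 0.12 (SD, n = 2 per group), 1.08 apart, which is several times the spread within a group. Most of that distance came from the mesenchymal side, whose mean log2 CPM was 2.43 and 2.45 in the controls and 3.35 and 3.22 in the others. Each gene weighs equally in that mean, which leans on SNAI1 and ZEB2, the factors close to the counting limit. Their log2 fold changes were 1.11 and 1.06, against 0.59 for SNAI2 and 0.72 for ZEB1. The epithelial mean was 5.44 and 5.33 against 5.13 and 5.17. No test is given, because the members were chosen with earlier results of these data known.

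**Figure D4:**
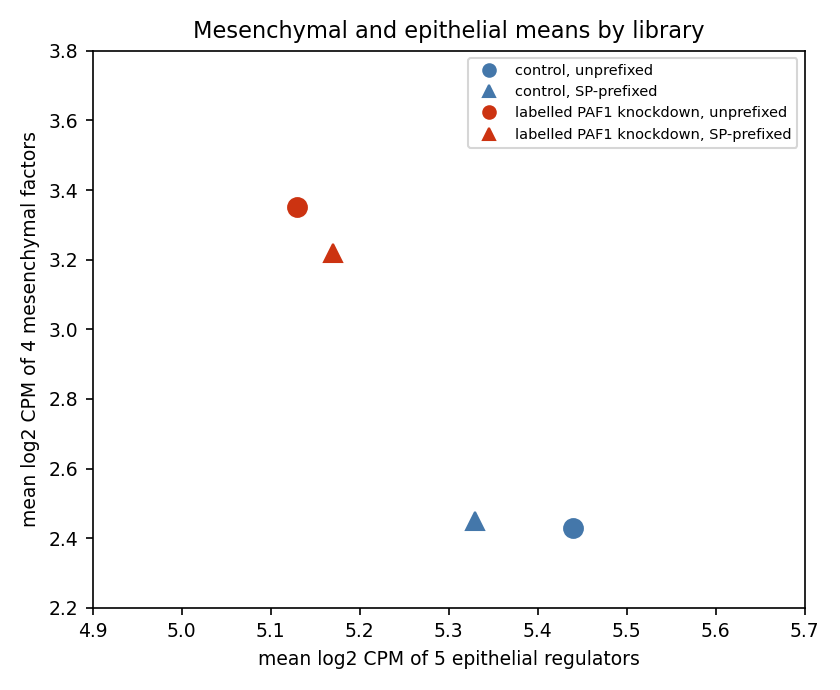
Mean log2 CPM of the 4 measured mesenchymal factors against that of the 5 epithelial regulators, 1 point per library. The knockdown-labelled libraries (red) lie at 3.22 and 3.35 on the mesenchymal axis and the controls (blue) at 2.43 and 2.45, while the epithelial axis spans 5.13 to 5.44.

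Ratios of counts within a library need no scaling between libraries. For each of the 20 pairs of a measured mesenchymal factor with an epithelial regulator, the ratio was higher in both knockdown-labelled libraries than in both controls. The 20 ratios share 9 genes and are not independent. Their direction was already fixed by the member levels given above, so it is no separate support. ZEB1 stood at 42.2 and 37.1 per 1000 ESRP1 counts in the controls and at 81.1 and 88.1 in the others. SNAI2 stood at 479 and 412 per 1000 GRHL2 counts in the controls and at 709 and 601. For SNAI1 per 1000 ESRP1 counts the values were 3.99 and 5.93 against 12.0 and 16.1.

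Levels were compared between members as CPM per kilobase of exon, using the exon lengths of the table. In the unprefixed control ESRP1 led at 49.9 CPM per kilobase, followed by SNAI2 at 28.7, GRHL2 at 22.5 and ESRP2 at 11.8. OVOL2 was at 3.53, OVOL1 at 2.30, ZEB1 at 1.19, SNAI1 at 0.575 and ZEB2 at 0.0482 CPM per kilobase. The SP-prefixed control gave the same order, and no neighbours in it overlapped between the controls. In the knockdown-labelled libraries SNAI2 (42.2 and 37.6 CPM per kilobase) overlapped ESRP1 (43.7 and 36.3). There ZEB1, at 1.99 and 1.80, lay above OVOL1, at 1.37 and 1.67, which overlapped SNAI1 at 1.51 and 1.69. The exon lengths in the table appear to merge the exons of several transcripts of a gene, with 21963 bases for ZEB2, so every level per length may be an underestimate and the order of members depends on these lengths.

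The microRNA genes that oppose ZEB1 and ZEB2 were read through their host transcripts, since libraries of this kind do not measure mature microRNAs. MIR205HG, the host of miR-205, had 54.7 and 67.6 CPM in control libraries and 44.3 and 43.9 CPM in the knockdown-labelled libraries. Its groups did not overlap, and its log2 fold change was -0.47 ± 0.15 (SE with n = 2 libraries a side; edgeR adjusted p = 0.345). Of all genes tested, 22.6% were lower without overlap. MIR200CHG, the host of miR-200c and miR-141, had 3.97 and 3.44 CPM against 3.42 and 3.06 CPM, and its log2 fold change was -0.20 ± 0.25 (SE with n = 2 libraries a side; edgeR adjusted p = 0.81). The groups of MIR200CHG were also apart, but barely, the higher knockdown-labelled library being 0.993 times the lower control. The counting intervals of MIR200CHG are wide beside these differences, at 58 to 90 counts per library. The precursor genes MIR200A, MIR200B, MIR429, MIR200C and MIR141 had 0 to 6 counts per library.

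RefSeq promoters (250 bases before to 50 after a start, GRCh38.p14) were at hand for ZEB1, with 7 starts, and ZEB2, 2 of the 10 members. The E-box letters CAGGTG or its reverse complement CACCTG, searched on both strands, were in 20.6% of 35116 promoters. They were in 2 of the 7 ZEB1 promoters, in 0 of 1 for ZEB2 and in that of MIR200CHG. The ZEB1 start shown is the one with the most matches, 3, among the 7. The MIR200CHG promoter is shown because the ZEB proteins are known to repress the miR-200 genes. E-boxes are in capitals, each sequence is 5′ to 3′ on the plus strand, and a match is not a measured site.
ZEB1, chr10:31318966-31319265: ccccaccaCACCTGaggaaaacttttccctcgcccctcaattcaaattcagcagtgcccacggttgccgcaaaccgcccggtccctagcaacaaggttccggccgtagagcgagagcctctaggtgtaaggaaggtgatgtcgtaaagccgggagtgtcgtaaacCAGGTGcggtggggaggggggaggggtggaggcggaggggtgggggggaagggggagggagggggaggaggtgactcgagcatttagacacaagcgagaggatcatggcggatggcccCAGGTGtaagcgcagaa
MIR200CHG, chr12:6962995-6963294: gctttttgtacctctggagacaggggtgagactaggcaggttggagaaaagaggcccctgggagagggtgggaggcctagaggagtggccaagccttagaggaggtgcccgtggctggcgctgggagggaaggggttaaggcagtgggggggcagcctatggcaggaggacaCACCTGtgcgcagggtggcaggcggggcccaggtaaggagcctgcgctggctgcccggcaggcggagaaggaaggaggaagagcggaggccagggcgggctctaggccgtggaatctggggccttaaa

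ZEB1 overlaps the antisense gene ZEB1-AS1, and the counting was not stated to use strand, so reads of the shared bases cannot be told apart. The exons of the genes overlapped by 366 bases, 4.23% of the exon length of ZEB1. ZEB1-AS1 had 8.02 and 12.01 CPM in control libraries and 8.68 and 7.85 CPM in the knockdown-labelled libraries, and its groups overlapped (log2 fold change -0.27 ± 0.24, SE with n = 2 libraries a side; edgeR adjusted p = 0.702). ZEB1 had 1.28 and 0.805 counts per ZEB1-AS1 count in the controls and 1.99 in each of the others. ZEB2-AS1 had 0 to 1 counts, and SNAI3-AS1 1.11 to 1.27 CPM. OVOL2 overlapped the exons of SNX5 by 59 bases and ESRP2 those of NFATC3 by 149 bases, each less than 3% of its exon length. An antisense gene covering 27.1% of the OVOL1 exons had 0 counts in every library.

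Among epithelial effectors, which the ZEB and Snail proteins repress or GRHL2 activates, 22 of 24 measured genes had log2 fold changes below 0, and the list median was -0.38. Groups did not overlap for 20 of them, all lower, beside 22.6% of all genes. In the fit without a covariate 0 passed and 13 were lower at an unadjusted p under 0.05, beside 7.21% of all genes. This list and those below were also chosen with earlier results of these data known, so their shares are a description. When the prefix was a term, 5 fell, against 1.34% of all genes. TJP3, a tight junction scaffold, fell from 73.7 and 74.1 CPM to 37.2 and 25.1 CPM (log2 fold change -1.27 ± 0.17, SE with n = 2 libraries a side; edgeR adjusted p = 0.0115). LLGL2, a basolateral polarity protein, fell from 108 and 102 CPM to 62.6 and 55.01 CPM (edgeR adjusted p = 0.0223). The membrane protease gene PRSS8, S100A14 and the receptor gene ERBB3 were the others. CDH1, the best known target, had 500.04 and 486 CPM in control libraries and 456 and 384 CPM in the knockdown-labelled libraries, a log2 fold change of -0.23 ± 0.14 that passed neither test although its groups did not overlap (edgeR adjusted p = 0.569 and 0.437).

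Among mesenchymal effectors 17 of 19 measured genes had log2 fold changes above 0, and the list median was 0.37. Groups did not overlap for 11 higher and 1 lower gene, beside 22.1% and 22.6% of all genes. With the prefix term 3 rose, against 0.512% of all genes, and without it 0 passed. VIM, which encodes the filament protein vimentin, rose from 161 and 199 CPM in control libraries to 317 and 392 CPM in the knockdown-labelled ones (edgeR adjusted p = 0.0115 with that term). CDH2, or N-cadherin, rose by 1.45 ± 0.24 on the log2 scale with the prefix term (SE with n = 2 libraries a side; edgeR adjusted p = 0.0219), and TAGLN, the actin-binding protein transgelin, by 0.94 ± 0.16 (edgeR adjusted p = 0.0236).

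Other transcription factors of the epithelial programme were mostly lower. Of 14 measured, 12 had log2 fold changes below 0, and the list median was -0.52, and 9 did not overlap, all lower, beside 22.6% of all genes. ELF5, at 14 and 12 counts in controls against 8 and 3, is among the 12 and the 9. It passed the filter on low counts only through the controls, so its direction is no support. KLF5, a Krüppel-like factor of epithelial growth, had 345 and 495 CPM in control libraries and 263 and 253 CPM in the knockdown-labelled libraries. EHF, an epithelial ETS factor, had 432 and 501 CPM against 343 and 299 CPM. The paralogs of GRHL2 were also apart, GRHL1 with 6.61 and 7.87 CPM against 5.21 and 3.48 CPM and GRHL3 with 5.16 and 7.48 CPM against 4.52 and 3.85 CPM. None of the 14 passed either fit. Within pairs the list median was -0.30 (unprefixed) and -0.73 (SP-prefixed).

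Other EMT factors were divided in direction. Of 8 measured, 6 had log2 fold changes above 0, and the list median was 0.09, and 0 passed. TCF4, a basic helix-loop-helix partner of Twist proteins, had 0.220 and 0.498 CPM against 0.810 and 1.11 CPM. It had 5 and 10 counts in the controls against 14 and 21. TCF4 thus passed the filter on low counts only through the knockdown-labelled libraries, so its place among the 6 is no support. The forkhead factor FOXC1 had 31.4 and 60.9 CPM against 21.8 and 22.7 CPM, which is opposite to its place in the list (log2 fold change -1.05 ± 0.29, SE with n = 2 libraries a side; edgeR adjusted p = 0.29). DESeq2 passed FOXC1 (adjusted p = 0.0415).

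Genes whose transcripts ESRP proteins splice were measured only as whole genes, so isoforms such as those of FGFR2 and CD44 could not be told apart. Of 15 measured, 7 had log2 fold changes above 0 and 8 below, and the list median was -0.03. UAP1, an enzyme of UDP-N-acetylglucosamine synthesis, rose by 0.72 ± 0.14 with the prefix term (SE with n = 2 libraries a side; edgeR adjusted p = 0.0355). In that fit 0.512% of all genes rose. Of 11 other splicing factors tied to EMT, 7 were positive, with a median of 0.13, and 0 passed. RBM47, an epithelial RNA-binding protein, had 95.9 and 122 CPM against 83.5 and 88.9 CPM. For SRSF1 the SP-prefixed control stood apart at 184 CPM, beside 332 to 368 CPM elsewhere.

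Partners and upstream signals of the Snail and ZEB factors did not pass in either fit. The medians were 0.07 over 13 corepressors and partners, -0.11 over 11 regulators of Snail protein stability and 0.11 over 15 genes of the TGF-beta pathway. EZH2, the Polycomb methyltransferase, had 56.7 and 54.7 CPM in control libraries and 73.2 and 81.03 CPM in the knockdown-labelled libraries. KDM1A, the demethylase that Snail recruits, had 322 and 316 CPM against 238 and 256 CPM. TGFB2, a ligand that induces EMT, had 22.8 and 22.3 CPM against 34.4 and 28.3 CPM, and its receptor gene TGFBR2 152 and 149.8 CPM against 188 and 167 CPM. PRKD1, a kinase that phosphorylates Snail, had 1.37 and 1.05 CPM against 2.49 and 1.84 CPM. FBXL14, a ubiquitin ligase subunit that targets Snail, had 25.96 and 28.2 CPM against 23.1 and 22.5 CPM.

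**Figure D5:**
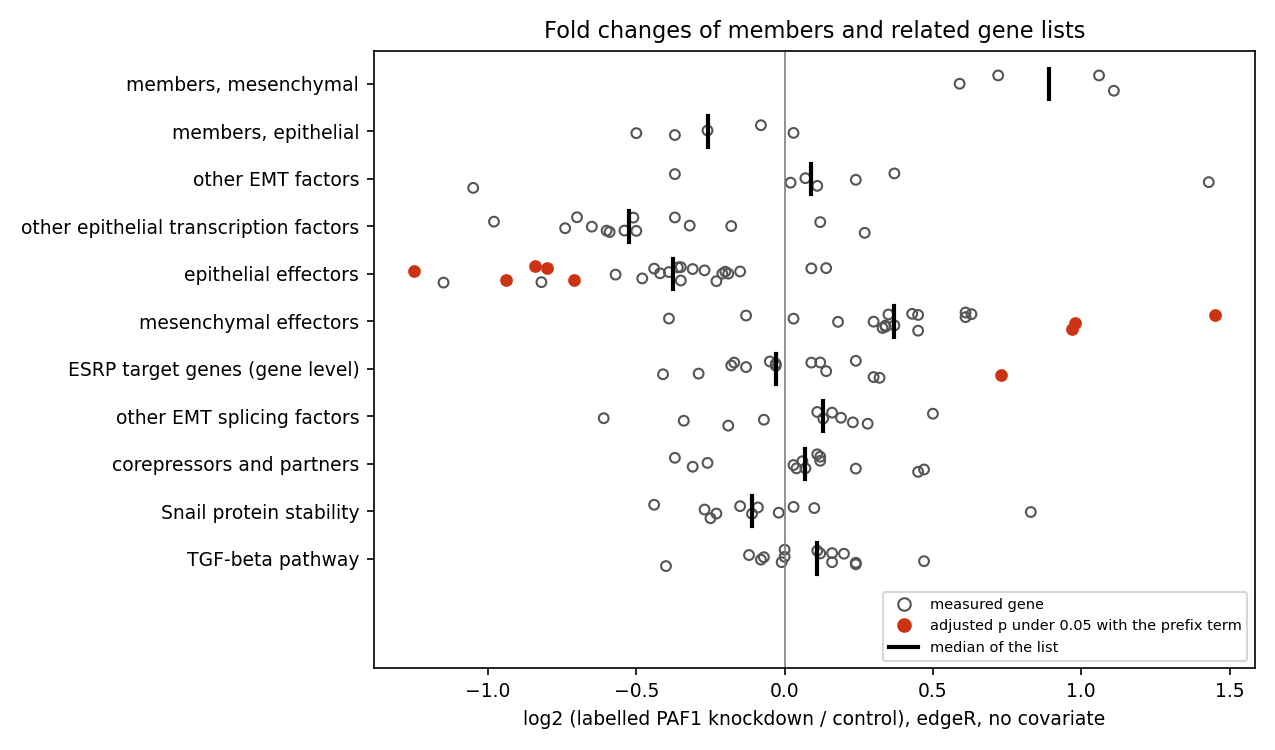
Log2 fold change (edgeR, no covariate) of each measured gene of the members and of 9 related lists, with the list median as a bar and genes past the test with the prefix term in red. The red points are 5 lower epithelial effectors, 3 higher mesenchymal effectors and UAP1, and none is a member.

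Mesenchymal factors are also expressed by fibroblasts, so fibroblast markers were read beside them. The 9 markers summed to 38.3 and 48.7 CPM in control libraries and 41.4 and 45.6 CPM in the knockdown-labelled libraries, most of it COL1A1 (29.8 to 37.9 CPM). COL3A1 and DCN were at 0 counts in every library, and COL1A2, PDGFRA and THY1 were below 0.06 CPM. The 4 endothelial markers summed to 26.2 and 29.2 CPM against 23.8 and 29.8 CPM, most of it CDH5. The 4 leukocyte markers summed to 0.705 and 0.797 CPM against 0.579 and 0.263 CPM, with MS4A1 at 0. None of these 3 sums was higher in both knockdown-labelled libraries than in both controls. LUM, PDGFRB, PECAM1 and CD14 were lower in both, beside 22.6% of all genes tested. CD14, at 15 counts in each control against 8 and 4, passed the filter on low counts only through the controls, so its direction is no support. VWF, COL1A1, ACTA2 and CDH5 overlapped. At the counting limit, PDGFRA had 0 and 0 counts in control libraries against 1 and 1. PTPRC had 1 and 0 counts against 2 and 1. In CPM these 2 markers were higher, PTPRC only through depth scaling, as a count of 1 occurred in both groups.

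By the root-mean-square difference of centred log2 CPM over the 4 libraries, the 5 genes most like ZEB1 among 11295 genes were HYI, TRDMT1, FOXF1, AP1S2 and TUBB2A, at 0.0467 to 0.0767 log2 units. FOXF1, a forkhead factor, had 7.80 and 7.68 CPM in control libraries and 12.0 and 11.6 CPM in the knockdown-labelled libraries. AP1S2, a clathrin adaptor subunit, had 10.2 CPM in both controls against 17.4 and 17.6 CPM. For GRHL2, whose groups overlapped, the nearest genes were MELK, BAG4, PEX26, SH2D4A and H3-3B, at 0.00269 to 0.0117 log2 units. With 4 libraries such likeness is a description of the profile.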

How the data were processed

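RNA-seq counts per gene and lane were deposited by the authors without normalization. The submitters' processing notes name HISAT2, featureCounts and FastQC as tools and GRCh38 and hg19 as builds; versions and the strand setting were not given in the sources used here. Coordinates matched GENCODE release 29 on GRCh38 for 56729 of 56753 shared identifiers. A column was taken as PAF1 knockdown where its name held PD2, an older symbol of PAF1, and as control where it held C and no PD2. Lanes were summed to 4 libraries.

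The test was the quasi-likelihood F test of edgeR 4.0.16 (R 4.3.3; TMM, filterByExpr at a minimum count of 10, Benjamini-Hochberg adjustment over 16417 genes, threshold 0.05), with DESeq2 1.42.0 and limma-voom 3.58.1 beside it. SEs were derived from the F statistic. The prefix term left 1 residual degree of freedom and the main test 2. CPM used TMM-normalised library sizes, and log2 CPM a prior count of 2. Intervals (exact Poisson, 95%) and zero-count limits cover counting error only. The edgeR fits were tested on simulated data. For the main fit these gave both controls the same expected CPM, so that test does not cover the distance between the controls here.

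The members and lists were chosen with earlier results of these data known. Named genes were all members, PAF1, CDH1 and VIM, up to 4 genes per list past the threshold in either edgeR fit, otherwise the 2 with the smallest p, and the 5 most like ZEB1 or GRHL2 among genes with a mean of at least 5 CPM. GRHL1, GRHL3, ELF5, ERBB3, TWIST2, PRRX1, FGFR2 and CD44 were named after their values were seen, as were the cell type markers ACTA2 and PTPRC. Figures were drawn with matplotlib 3.10.9.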

Additional observations from a re-analysis of the deposited data

How the results depend on the processing

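The count of genes past the threshold was 0 without a covariate, 304 with the prefix term, 258 with DESeq2 and 902 without a filter on low counts, where 3 members (SNAI1, SNAI2 and ZEB1) passed at adjusted p of 0.0351, 0.0145 and 0.0251. It was 0 with limma-voom, other scalings and either lane alone. Leaving out 1 library at a time gave 0 to 1434 genes and 0 to 2 members, the highest without the unprefixed control (SNAI2 and ZEB1) and 291 genes without the SP-prefixed control. The cause was not tested. ESRP2 changed sign without the unprefixed control, with log2 fold changes of -0.18 to 0.04 over the fits that leave out a library. Of the others, GRHL2 had log2 fold changes of 0.00 to 0.07, reaching 0.00 without the SP-prefixed knockdown-labelled library, and the remaining 7 kept their sign in all 13 alternatives, with log2 fold changes of 0.82 to 1.47 for SNAI1, 0.48 to 0.72 for SNAI2, 0.63 to 0.81 for ZEB1, 0.66 to 1.66 for ZEB2, -0.65 to -0.36 for OVOL1, -0.52 to -0.03 for OVOL2 and -0.5 to -0.24 for ESRP1. The mesenchymal minus epithelial difference between groups was 1.08, from 0.99 to 1.16 on leaving out a library, and 0.91 with TWIST1 at 0 counts included, a setting chosen after seeing the data. No paired analysis was possible because the columns carry no library number of the titles, and the prefix term pairs libraries by their column names instead. SNAI1 and ZEB2, at 18 to 54 counts per library, are limited by depth.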
